A study of Homo sapiens with 6 samples.

Results

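YAP1, WWTR1 (the gene of TAZ), TEAD1, TEAD4, CTGF, CYR61, ANKRD1, AMOTL2, AJUBA and LATS2 are genes of the Hippo pathway and its transcriptional output. They were taken by symbol from the deposited expression table, which lists CTGF and CYR61 by these older names of CCN2 and CCN1, and all 10 of them were found among its 59074 genes. RNA of 3 established lines of glioblastoma, named LN-229, T98G and U251, was sequenced at 72 h after transfection with a siPOOL, a mixture of many siRNAs against 1 transcript. The siHOTAIRM1 siPOOL was directed against HOTAIRM1, a long non-coding RNA of the HOXA gene cluster, and the siControl siPOOL had no target. Each of the 3 lines gave 1 library per condition (6 libraries), so that the spread of a change can be estimated over lines but not within a line. Lines were labelled by name in the cell line entries, and the sample titles call the first LNT229.

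In the Hippo pathway, the kinases STK3 and STK4 activate LATS1 and LATS2, which phosphorylate the coactivators YAP1 and TAZ and so hold them in the cytoplasm. Without this phosphorylation YAP1 and TAZ enter the nucleus and bind the TEAD factors, which contact DNA for them, and the complex turns on CTGF, CYR61, ANKRD1 and AMOTL2. LATS2, AMOTL2 and AJUBA belong to the regulators of the pathway, since AMOTL2 binds YAP1 and AJUBA restrains LATS kinases. RNA levels of the coactivators do not show their phosphorylation or location, and the RNA of the target genes is the part of the output that this measurement sees.

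The TEAD factors recognise GGAATG, which reads CATTCC on the other strand. RefSeq promoters on GRCh38.p14 (250 bases before to 50 bases after a transcription start) were matched for 7 of the 10 genes, with 10 promoters in all. CYR61, TEAD1 and TEAD4 were not matched. GGAATG in either orientation was present in 6 of the 10 promoters, belonging to 6 of the 7 genes, and in 14.0% of 35116 RefSeq promoters of the same length. CTGF held 3 matches and ANKRD1 held 2, where 0.128% of all promoters held 3 or more and 1.37% held 2 or more. Both promoters of WWTR1 held none. The 250 bases upstream of the start are shown for CTGF and ANKRD1, the target genes with the most matches, 5′ to 3′ on the strand of the gene and with the matches in capitals. They lie on the minus strand at chr6:131951373-131951622 and chr10:90921088-90921337.

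CTGF: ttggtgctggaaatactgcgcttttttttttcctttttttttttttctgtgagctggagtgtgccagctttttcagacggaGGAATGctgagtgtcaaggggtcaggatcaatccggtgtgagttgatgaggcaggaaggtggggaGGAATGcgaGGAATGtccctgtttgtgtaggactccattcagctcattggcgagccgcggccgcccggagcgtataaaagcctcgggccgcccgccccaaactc

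ANKRD1: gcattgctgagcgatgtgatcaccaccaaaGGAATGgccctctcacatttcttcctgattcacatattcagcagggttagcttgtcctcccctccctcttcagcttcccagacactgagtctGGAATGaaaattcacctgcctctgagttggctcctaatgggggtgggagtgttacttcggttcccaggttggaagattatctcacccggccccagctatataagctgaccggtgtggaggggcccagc

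The matches of CTGF began 169, 104 and 95 bases upstream of the start, and the last 2 lay 3 bases apart. Those of ANKRD1 began 220 and 128 bases upstream. For the genes with a single match, 30 bases around it are shown, again on the strand of the gene and with the match in capitals, to let the flanking bases be compared. They lie at chr11:102110273-102110302 (YAP1), chr3:134374499-134374528 (AMOTL2), chr14:22976884-22976913 (AJUBA) and chr13:21061560-21061589 (LATS2).

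YAP1: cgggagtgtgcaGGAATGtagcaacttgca

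AMOTL2: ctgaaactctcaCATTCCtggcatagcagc

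AJUBA: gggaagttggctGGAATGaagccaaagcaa

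LATS2: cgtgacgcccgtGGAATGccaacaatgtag

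The match of YAP1 began 162 bases upstream of the start, that of AMOTL2 69 bases and that of AJUBA 59 bases, and that of LATS2 lay downstream of the start. The match of AMOTL2 was on the other strand. AMOTL2 and AJUBA each had 2 promoters, of which 1 held the match. A match describes the letters of the promoter and shows no binding in these cells.

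**Figure D1:**
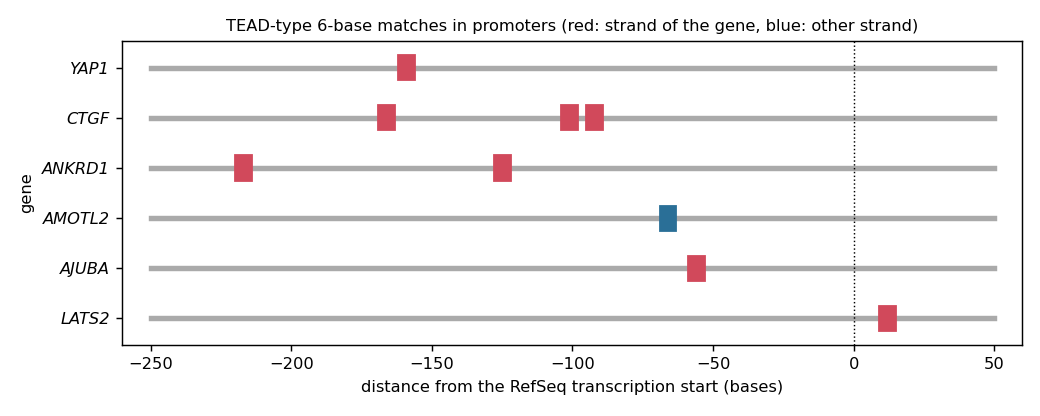
Position of GGAATG matches in RefSeq promoters, in bases from the transcription start (dotted line), for the 6 genes with a match. Grey bars span the promoter, red boxes are matches on the strand of the gene and blue boxes on the other strand. CTGF has 3 boxes, ANKRD1 has 2 and the other genes have 1 each.

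Libraries held 52.2 to 103.9 M reads, as read from the CPM worth of 1 read, so that 3 reads, taken as the smallest detectable level, corresponded to 0.0289 to 0.0574 CPM (counts per M reads). The listed genes summed to 42.9 to 67.2% of the full CPM scale, and protein-coding genes made up 71.0% of that sum in the U251 siControl library and 78.9 to 80.8% in the others. HOTAIRM1 (chr7:27095647-27100265) was lower with siHOTAIRM1 than with siControl in 3 of 3 lines, at 0.952 against 1.99 CPM in LN-229, 2.15 against 3.49 CPM in T98G and 0.623 against 1.27 CPM in U251. Its change was -0.54 on the log2(CPM + 1) scale (SE 0.12, limma adjusted p = 0.0146), and the adjusted p was 0.170 after median centring, 0.0711 without LN-229 and 0.435 without T98G. VIM (254 to 1794 CPM), CD44 (304 to 819 CPM) and TNC (25.4 to 1163 CPM), markers used for glioblastoma lines, were found in all 6 libraries. NES was at 0.866 to 0.956 CPM and SOX2 near 0 in T98G, and GFAP exceeded 1 CPM only in U251 (20.7 to 42.5 CPM). OLIG2, a further marker of the same list, exceeded 1 CPM only in LN-229 (1.43 to 1.69 CPM). Markers of other cell types summed to 1.05 to 8.57 CPM, of which CD68 reached 7.80 CPM in T98G and CDH5 2.83 CPM in U251.

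Most of the 10 genes differed between the cell lines, and none passed the test between siControl and siHOTAIRM1. Genes were compared between lines with limma over the 2 libraries of each line, with the condition in the model. These 2 are its siControl and its siHOTAIRM1 library, not replicate cultures of 1 condition. The p-values between lines, however small, therefore do not measure the spread between replicate cultures of a line. In this test 8 of the 10 genes differed among the lines, where 81.0% of the 14294 genes tested did. TEAD1 (adjusted p = 0.698) and LATS2 (adjusted p = 0.285) were the exceptions. T98G and LN-229 differed for 7 genes (54.9% of genes tested), U251 and LN-229 for 7 (60.6%) and U251 and T98G for 8 (64.2%). The number of genes that differed was thus of the order found over all genes, and the line with the highest level was not the same for all of them.

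**Figure D2:**
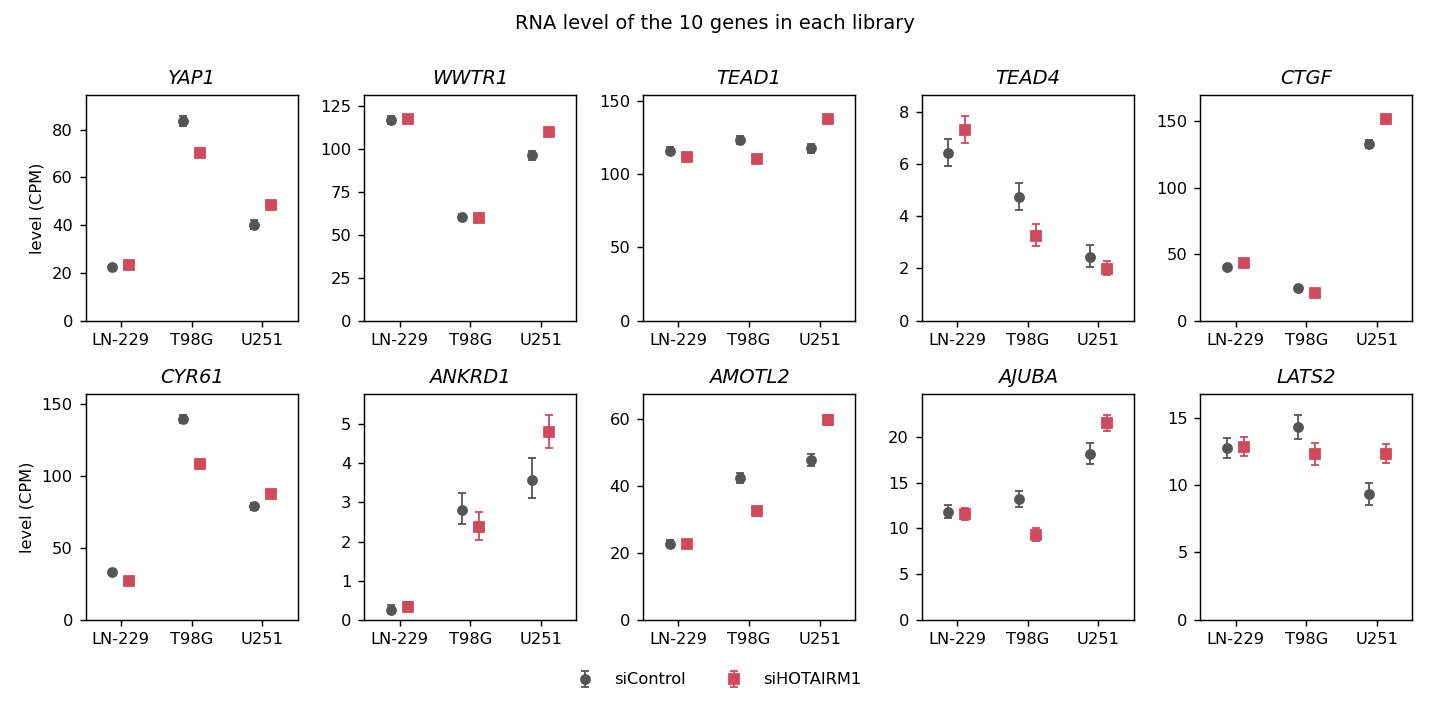
Level in CPM of each of the 10 genes in each library, siControl as grey circles and siHOTAIRM1 as red squares, with 95% Wilson intervals that cover counting error only. YAP1 and CYR61 are highest in T98G, CTGF is highest in U251, WWTR1 is lowest in T98G, and TEAD1 lies between 110.2 and 138 CPM in all 6 libraries.

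YAP1 (chr11:102110447-102233424, plus strand), the coactivator that gives the pathway output its name, was at 22.5 CPM with siControl and 23.1 CPM with siHOTAIRM1 in LN-229, at 83.7 and 70.4 CPM in T98G and at 40.2 and 48.3 CPM in U251. The 3 lines did not overlap, in the order T98G, U251, LN-229. On the log2(CPM + 1) scale T98G was higher than LN-229 by 1.71 (SE 0.18, adjusted p = 2.50e-10) and higher than U251, with U251 minus T98G at -0.79 (SE 0.18, adjusted p = 0.000246).

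WWTR1 (chr3:149517235-149736714, minus strand) encodes TAZ, the paralogue of YAP1. Its level was 117 and 117 CPM in LN-229, 60.4 and 60.1 CPM in T98G and 96.3 and 109.8 CPM in U251. T98G was the lowest line (T98G minus LN-229 -0.95 on the log2(CPM + 1) scale, SE 0.18, adjusted p = 3.78e-05), and U251 and LN-229 did not differ beyond their spread (U251 minus LN-229 -0.19, SE 0.18, adjusted p = 0.385). With protein-coding genes scaled to a common sum, the latter difference was -0.46 (adjusted p = 0.0131), so that it depends on the scaling.

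Since a ratio of 2 genes in 1 library does not depend on scaling, YAP1 was also set against WWTR1. The ratio of their CPM with siControl was 0.192 (95% counting interval 0.183 to 0.201) for LN-229, 1.38 (1.33 to 1.44) for T98G and 0.417 (0.396 to 0.439) for U251. With siHOTAIRM1 it was 0.197 for LN-229, 1.17 (1.125 to 1.22) for T98G and 0.439 for U251. The intervals in T98G do not overlap between the conditions, but 1 library per condition leaves the spread between libraries unknown. Per kilobase of canonical transcript, YAP1 stood above WWTR1 in T98G, with ratios of 1.29 and 1.09, and below it in LN-229 (0.179 and 0.184) and U251 (0.389 and 0.410). Fewer cells with a gene and less RNA per cell cannot be told apart in such bulk samples.

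TEAD1 (chr11:12674421-12944737, plus strand), a TEAD factor found in many tissues, was at 116 and 112 CPM in LN-229, at 123 and 110.2 CPM in T98G and at 118 and 138 CPM in U251. T98G overlapped both other lines and U251 lay above LN-229, but no difference passed the test. The differences from LN-229 were 0.03 (SE 0.19) in T98G and 0.16 (SE 0.19) in U251 on the log2(CPM + 1) scale, the latter turning to -0.11 with protein-coding genes scaled to a common sum. TEAD4 (chr12:2959330-3040676, plus strand), a paralogue best known from the trophectoderm, had 6.41 and 7.31 CPM in LN-229, 4.73 and 3.25 CPM in T98G and 2.43 and 1.99 CPM in U251. Its order LN-229, T98G, U251 had no overlap, and each step passed the test, with T98G minus LN-229 at -0.67 (SE 0.18, adjusted p = 0.00158) and U251 minus T98G at -0.62 (SE 0.18, adjusted p = 0.00241). Without the filter on low genes both calls were lost (adjusted p = 0.0506 and 0.0556).

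The ratio of TEAD4 to TEAD1 in CPM with siControl was 0.0553 (95% counting interval 0.0508 to 0.0602) for LN-229, 0.0384 (0.0344 to 0.0429) for T98G and 0.0207 (0.0173 to 0.0246) for U251. With siHOTAIRM1 it was 0.0654 (0.0607 to 0.0703), 0.0295 (0.0259 to 0.0335) and 0.0144 (0.0126 to 0.0166). TEAD4 was thus below TEAD1 in every library also per kilobase, where the ratio ran from 0.0795 to 0.360. The order of the lines in this ratio was the same in both conditions.

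CTGF (chr6:131948176-131951372, minus strand), a secreted matricellular protein and the most widely used read-out of YAP1 and TAZ, was at 40.4 and 43.2 CPM in LN-229, at 24.5 and 20.6 CPM in T98G and at 133 and 152 CPM in U251. U251 stood above T98G by 2.61 on the log2(CPM + 1) scale (SE 0.18, adjusted p = 4.38e-15) and above LN-229 by 1.74 (SE 0.18, adjusted p = 1.63e-10). CYR61 (chr1:85580761-85584589, plus strand), its relative in the CCN family, had another order. It was at 33.0 and 26.9 CPM in LN-229, at 139.8 and 109 CPM in T98G and at 78.9 and 87.2 CPM in U251. T98G exceeded LN-229 by 2.01 (SE 0.18, adjusted p = 8.63e-12), and U251 minus T98G was -0.57 (SE 0.18, adjusted p = 0.00762), a call that was lost without the filter on low genes (adjusted p = 0.0600).

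The ratio of CTGF to CYR61 in CPM with siControl was 1.22 (95% counting interval 1.17 to 1.28) for LN-229, 0.175 (0.166 to 0.184) for T98G and 1.68 (1.62 to 1.75) for U251. With siHOTAIRM1 it was 1.61 (1.53 to 1.69) for LN-229, 0.190 (0.180 to 0.201) for T98G and 1.74 (1.69 to 1.79) for U251. The 2 relatives therefore stood in opposite order in T98G and in the other lines, in both conditions. In LN-229 the intervals of the conditions did not overlap, and those of TEAD4 to TEAD1 did not in any line. These intervals cover counting error only, and 1 library per condition leaves the spread between libraries unknown.

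**Figure D3:**
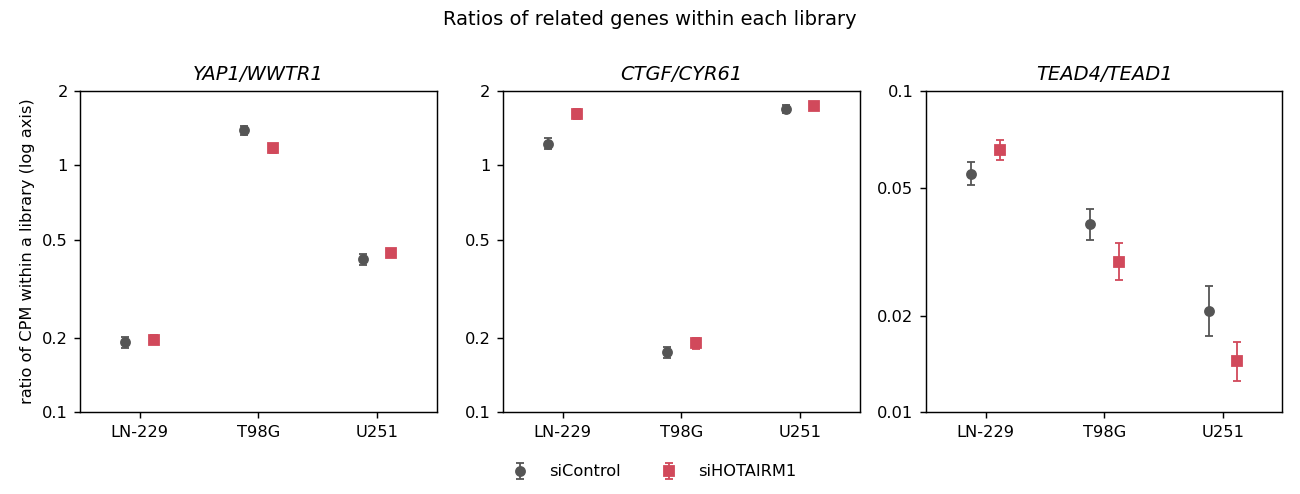
Ratio of CPM of 2 related genes within each library (log axis), siControl as grey circles and siHOTAIRM1 as red squares, with 95% counting intervals. T98G has the highest ratio of YAP1 to WWTR1 (1.38 and 1.17) and the lowest ratio of CTGF to CYR61 (0.175 and 0.190), and the ratio of TEAD4 to TEAD1 is highest in LN-229 and lowest in U251.

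ANKRD1 (chr10:90912096-90921087, minus strand), a muscle ankyrin repeat protein that YAP1 and TAZ induce in many cells, was at 0.249 and 0.327 CPM in LN-229, at 2.81 and 2.38 CPM in T98G and at 3.58 and 4.79 CPM in U251. LN-229 was below both other lines, by 2.0 against U251 on the log2(CPM + 1) scale (SE 0.16, adjusted p = 2.60e-13). AMOTL2 (chr3:134355347-134375479, minus strand), an angiomotin that is both target and inhibitor of YAP1, was at 22.8 and 22.8 CPM in LN-229, at 42.4 and 32.4 CPM in T98G and at 47.8 and 59.8 CPM in U251. U251 exceeded LN-229 by 1.195 (SE 0.18, adjusted p = 7.14e-07). For both genes the difference of U251 from T98G, 0.52 (SE 0.16, adjusted p = 0.00480) for ANKRD1 and 0.52 (SE 0.18, adjusted p = 0.0135) for AMOTL2, did not pass after median centring (adjusted p = 0.109 and 0.107).

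AJUBA (chr14:22971177-22982551, minus strand), a LIM protein of cell junctions, was at 11.8 and 11.6 CPM in LN-229, at 13.2 and 9.27 CPM in T98G and at 18.1 and 21.5 CPM in U251. LN-229 and T98G overlapped (T98G minus LN-229 -0.07, SE 0.18, adjusted p = 0.762, turning to 0.01 after median centring), and U251 was above T98G by 0.78 (SE 0.18, adjusted p = 0.000384, or 0.0829 with the listed genes scaled to a common sum). LATS2 (chr13:20973036-21061586, minus strand), the kinase that inactivates YAP1 and TAZ, was at 12.7 and 12.8 CPM in LN-229, at 14.3 and 12.3 CPM in T98G and at 9.32 and 12.3 CPM in U251. T98G overlapped both other lines and LN-229 lay above U251, but no difference passed the test. U251 minus T98G was -0.28 (SE 0.18, adjusted p = 0.171), which became -0.60 (adjusted p = 0.0108) with protein-coding genes scaled to a common sum.

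Per kilobase of canonical transcript, WWTR1 was the most abundant of the 10 RNAs in LN-229 (23.3 CPM per kilobase, mean of 2 libraries), followed by CTGF (17.9) and CYR61 (13.1). In T98G CYR61 led (54.5), with YAP1 (14.3), TEAD1 (12.4) and WWTR1 (11.96) close together behind it. In U251 CTGF led (60.9), before CYR61 (36.5) and WWTR1 (20.5). ANKRD1 was last in LN-229 (0.161) and T98G (1.45), and TEAD4 was last in U251 (1.29). YAP1 in T98G was at 77.0 ± 9.42 CPM and TEAD1 at 117 ± 9.25 CPM (SD, n = 2), a spread that includes the 2 conditions.

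The levels of the 10 genes did not run in parallel across the 6 libraries. On the log2(CPM + 1) scale, YAP1 ran most closely with CYR61 (Pearson r = 0.97, 6 libraries) and against WWTR1 (r = -0.90), and its r with CTGF was -0.27. AMOTL2 ran with ANKRD1 (r = 0.97), CTGF with AJUBA (r = 0.92), and the r of CTGF with CYR61 was -0.08. Since the 2 libraries of a line lie close together, these values describe the order of 3 lines. Over all genes tested, the closest patterns were those of IGSF10, SMCO4 and CCDC163P for YAP1 (r = 0.998, 0.997 and 0.997), of ZNF557, PSAP and SLC30A6 for CTGF (r = 0.999, 0.998 and 0.997) and of TRIM22, CLU and PIM1 for CYR61 (r = 0.998, 0.997 and 0.997). An r above 0.9 was found for 805 genes with YAP1, 1867 with CTGF and 792 with CYR61, so that such likeness was common.

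The question that the design addresses is what changed after HOTAIRM1 knock-down. None of the 10 genes passed the limma test over the 3 lines (smallest adjusted p = 0.574 for CYR61, none at an unadjusted p under 0.05), where 0.413% of the 14294 genes tested were called higher and 1.59% lower, and 18.3% had an unadjusted p under 0.05. CYR61 had the largest change, -0.17 on the log2(CPM + 1) scale (SE 0.15, 95% interval -0.47 to 0.14), followed by TEAD4 with -0.16 (SE 0.14, interval -0.45 to 0.14). For YAP1 the change was 0.02 (SE 0.15, interval -0.28 to 0.31), for WWTR1 0.06 (SE 0.15, interval -0.24 to 0.36) and for CTGF 0.02 (SE 0.15, interval -0.28 to 0.31). TEAD1 (0.00), ANKRD1 (0.08), AMOTL2 (-0.02), AJUBA (-0.08) and LATS2 (0.06) had intervals between -0.39 and 0.36. The intervals rest largely on a spread that limma pools over all genes, since each gene alone leaves 2 residual degrees of freedom. With this pooled error, a shared change of 0.5 or more in either direction lies outside the interval of each of the 10 genes, and smaller changes remain within them. This bound did not hold in every alternative. Among others, ANKRD1 was at 0.16 (SE 0.20) and TEAD4 at -0.21 (SE 0.19) with a pseudocount of 0.1, and without LN-229 TEAD4 was at -0.32 (SE 0.17). Without U251, CYR61 was at -0.32 (SE 0.20), AJUBA at -0.24 (SE 0.19) and AMOTL2 at -0.19 (SE 0.19). Intervals with these errors reach past 0.5 in size. When the block for the line was left out, the SE ran from 0.20 for TEAD1 to 0.90 for CTGF. The change over lines turned its sign for YAP1 (-0.10), WWTR1 (-0.0022), TEAD1 (-0.11), CTGF (-0.07), ANKRD1 (-0.04) and LATS2 (-0.10) when U251 was left out, and for AMOTL2 (0.16) and AJUBA (0.11) when T98G was left out.

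These small averages were made of changes with different signs in different lines. In LN-229, 6 of the 10 genes were higher with siHOTAIRM1 (53.3% of genes tested), in T98G all 10 were lower (79.3% of genes tested were) and in U251 9 were higher (45.7% of genes tested were). The median of the 10 changes on the log2(CPM + 1) scale was 0.01 for LN-229, -0.24 for T98G and 0.23 for U251, beside medians over all genes tested of 0.01, -0.19 and -0.03. With protein-coding genes scaled to a common sum, 6 of the 10 genes were higher in T98G, where 54.9% of genes tested were. In U251, 9 were higher with every scaling tried, but the share over all genes tested also moved with the scaling. It was 69.1% in U251 with the listed genes scaled to a common sum and 56.7% with the protein-coding genes scaled. The U251 siControl library was the shallowest (52.2 M reads) and had the lowest share of protein-coding genes.

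The median of the 10 genes in T98G lay near that of all genes, and in U251 it lay above. Set against the median change of their line, 4 genes were higher for LN-229, 3 for T98G and 9 for U251, and the median of the 10 was -0.0041, -0.05 and 0.26. No gene changed by 0.5 or more in LN-229 (2.46% of genes tested did), T98G (8.90%) or U251 (18.4%). Within a line no test is possible with 1 library per condition.

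**Figure D4:**
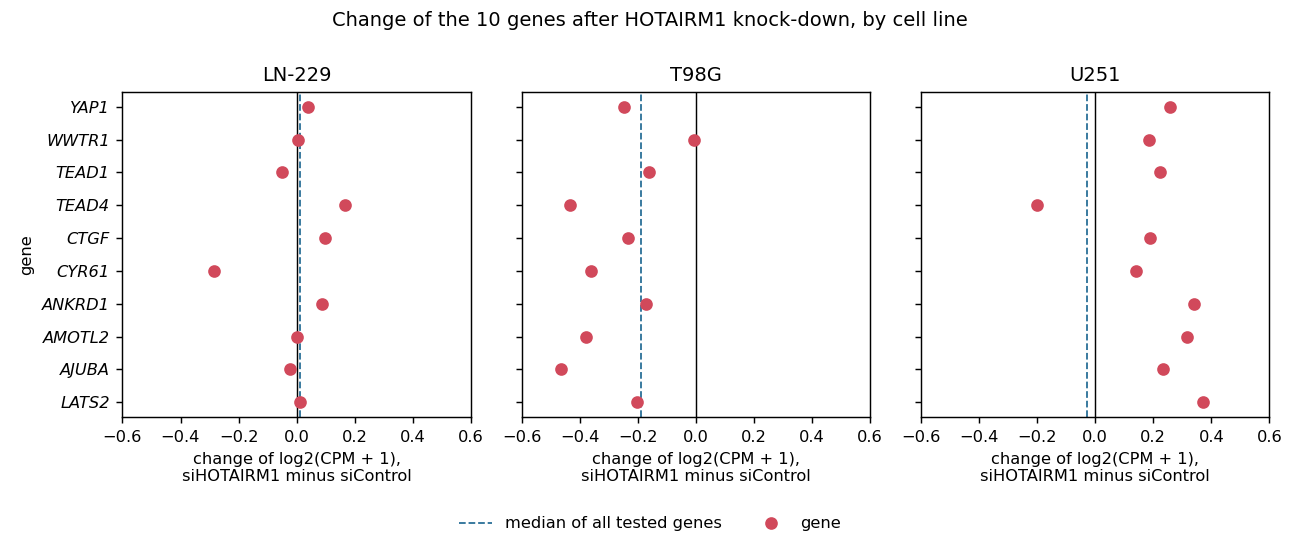
Change of log2(CPM + 1), siHOTAIRM1 minus siControl, for each of the 10 genes in each cell line (red points), with the median of all genes tested (blue dashed line) and no change (black line). The points lie near 0 in LN-229 except CYR61 (-0.29) and TEAD4 (0.17), and around the median of -0.19 in T98G. In U251 they lie above the median except TEAD4 (-0.20). With protein-coding genes scaled to a common sum, 6 of the 10 lie above 0 in T98G, as do 54.9% of genes tested.

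In all, 9 of the genes were lower in T98G and higher in U251, a combination found for 30.3% of genes tested, and TEAD4 was lower in both. Relative to the medians of the lines it held for 6. The differences of these changes between lines have no test, since each line has 1 library per condition.

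Among the coactivators, the change of YAP1 on the log2(CPM + 1) scale was 0.04 in LN-229, -0.25 for T98G and 0.26 for U251, and that of WWTR1 was 0.00, -0.01 and 0.19. The change of WWTR1 in T98G, where most genes were lower, ranked at percentile 77.9 of all genes tested in that line. TEAD1 changed by -0.05, -0.16 and 0.23, with the signs of YAP1 in T98G and U251. The change of TEAD4 was 0.17, -0.43 and -0.20, on levels under 8 CPM.

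Among the target genes, CYR61 was lower in LN-229 (-0.29, from 33.0 to 26.9 CPM or -18.5%), which ranked at percentile 4.35 of all genes tested in LN-229. Its log2 ratio there was -0.30 with a 95% counting interval of -0.37 to -0.22. It was also lower in T98G (-0.36) and higher in U251 (0.14). CTGF was 0.10, -0.24 and 0.19 in the same order of lines, so that in LN-229 CTGF and CYR61 had opposite signs. ANKRD1 was 0.09, -0.17 and 0.34, and in LN-229 its log2 ratio of 0.39 had a counting interval from -0.38 to 1.17.

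Among the regulators that bind the pathway at junctions or act on the coactivators, AMOTL2 was -0.00043 in LN-229, where the 2 libraries were at 22.8 CPM each, -0.38 in T98G and 0.32 in U251. AJUBA had the lowest value of the 10 in T98G, -0.47 (a log2 ratio of -0.51, counting interval -0.65 to -0.36), and was -0.02 in LN-229 and 0.23 in U251. LATS2 had the highest value in U251, 0.37 (9.32 to 12.3 CPM, or 32.4% more), at percentile 87.9 of the genes tested there, and was 0.01 in LN-229 and -0.20 in T98G.

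The remaining genes of the pathway were read from 3 lists of known components. Over all genes tested, 0.413% were called higher and 1.59% lower, and 18.3% had an unadjusted p under 0.05 in the limma test. In the Hippo kinase module, 0 of 20 genes tested (of 21 listed) were called higher and 0 lower, with 1 at an unadjusted p under 0.05. The largest changes on the log2(CPM + 1) scale were those of MOB1A, the adaptor that activates LATS kinases, with -0.53 (SE 0.15, adjusted p = 0.0560), WWC1 (KIBRA) with -0.29 and TNIK with 0.25. MOB1A had 89.5 CPM with siControl and 68.0 with siHOTAIRM1 in LN-229, 111 and 73.8 in T98G and 167 and 109 in U251. It was lower in 3 of 3 lines and just missed the threshold, and with a pseudocount of 0.1 the list had 1 called gene.

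Of the junction, polarity and cadherin inputs, 0 of 16 genes tested were called higher and 0 lower (0.413% and 1.59% of all genes tested). An unadjusted p under 0.05 was found for 2 of them (18.3% of all genes tested). WTIP, a LIM protein related to AJUBA, had 0.42 (SE 0.12, adjusted p = 0.0636) on levels of 0.268 to 4.25 CPM, the protocadherin DCHS1 had 0.36 (adjusted p = 0.147) and the FERM protein FRMD6 had -0.21. Of the coactivators, TEAD factors and VGLL cofactors, 0 of 8 tested were called higher and 0 lower, with 1 at an unadjusted p under 0.05 (18.3% of all genes tested). TEAD3 had 0.36 (SE 0.13, adjusted p = 0.121), with 0.48 for LN-229, 0.20 for T98G and 0.41 for U251, and VGLL4, which competes with YAP1 for the TEAD factors, had 0.28 and TEAD4 -0.16. TEAD3 was at 0.479 to 4.47 CPM, far below TEAD1.

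The medians of these lists were below 0 in T98G and above 0 in U251, as for the 10 genes. The kinase module had medians of 0.01 for LN-229, -0.17 for T98G and 0.23 for U251, with 15 of its 20 genes higher in U251 (45.7% of all genes tested) and 18 lower in T98G (79.3%). Set against the line median, 16 of the 20 were higher in U251 and 12 in T98G, so that the T98G count lay near the shift of all genes. The coactivator and TEAD list had 0.10, -0.11 and 0.21, and the junction list -0.0012, -0.07 and 0.14. The lists share genes with the 10, and all are set beside medians over all genes of 0.01, -0.19 and -0.03.

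A signature of 22 target genes of YAP1 and TAZ across cancers, which holds 5 of the 10 genes, had 0 genes called higher (0.413% of all genes tested) and 2 lower (1.59%), with 4 at an unadjusted p under 0.05 (18.3%). The last count lay near the share over all genes. NT5E, the ecto-5'-nucleotidase CD73 that makes adenosine outside the cell, fell by 1.23 on the log2(CPM + 1) scale (SE 0.16, adjusted p = 2.32e-05) and was lower in 3 of 3 lines, from 194 to 126 CPM in LN-229, from 55.1 to 17.4 CPM in T98G and from 49.2 to 17.2 CPM in U251. IGFBP3, a binding protein of insulin-like growth factors, fell by 0.86 (SE 0.20, adjusted p = 0.0169), with 18.9 and 4.60 CPM in LN-229, 82.9 and 42.5 CPM in T98G and 3.14 and 3.75 CPM in U251. It was lower in 2 of 3 lines. The limma adjusted p of NT5E was 0.0555 with protein-coding genes scaled to a common sum and 0.367 without T98G. It was 0.667 without the filter and 0.999998 without the block for the line. The change of IGFBP3 was -0.37 (adjusted p = 0.365) without LN-229 and -1.39 without U251. The call of IGFBP3 was also lost after median centring (adjusted p = 0.2498), with the listed genes (0.324) or the protein-coding genes (0.281) scaled to a common sum, with the length trend removed (0.243), without the filter (0.667), without the block for the line (0.999998) and without T98G (0.590).

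No other gene of the signature passed the test. ARHGEF17 (0.37) and RBMS3 (0.30), named here after their values were seen because they complete the 4 genes under an unadjusted p of 0.05, had the opposite sign. The 17 signature genes outside the 10 had medians of -0.06 for LN-229, -0.24 for T98G and 0.07 for U251, with 9, 14 and 5 of them lower. Over all 22, 11 were higher in LN-229 (53.3% of all genes tested), 19 lower in T98G (79.3%) and 16 higher in U251 (45.7%), and the medians were 0.00, -0.24 and 0.18, beside 0.01, -0.19 and -0.03 over all genes. Set against the line median, 8 of the 22 were higher in T98G and 18 in U251.

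**Figure D5:**
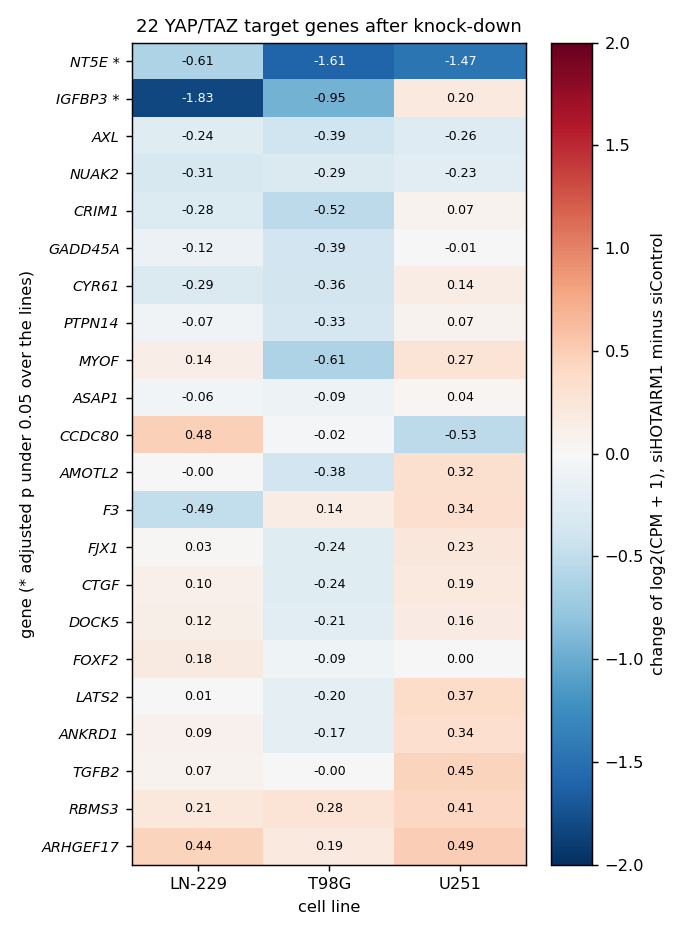
Change of log2(CPM + 1), siHOTAIRM1 minus siControl, of the 22 signature genes (rows) in each cell line (columns), with the value in each cell, blue for lower and red for higher. Asterisks mark the genes with an adjusted p under 0.05 over the lines, NT5E (-0.61, -1.61 and -1.47) and IGFBP3 (-1.83, -0.95 and 0.20), at the top.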

How the data were processed

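Total RNA was isolated from 3 cell lines with 2 conditions, and 6 libraries were made from it with a TruSeq RNA kit. The authors trimmed the reads and aligned them to hg38 with STAR 2.4.1d in Partek, and used Bowtie 2 for reads left unaligned. They quantified the aligned reads by Expectation-Maximization against Ensembl release 84 and deposited CPM of 59074 genes with 0.0001 added. Of the values under 50 reads, 85.4 to 87.1% were whole reads (tolerance 0.02 reads), so no count test was used. Counting intervals (95%) use the CPM worth of 1 read and cover counting error only. Those of single levels are Wilson intervals, and those of ratios and log2 ratios are normal approximations on the log scale.

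The 14294 genes whose mean reached 1 CPM were tested on log2(CPM + 1) with limma 3.58.1 (R 4.3.3), a mean-variance trend and a block for the line, and p-values were adjusted after Benjamini-Hochberg (threshold 0.05). Lines were compared in the same fit. Libraries of the same line deviated together from their condition's mean (r = 0.948 to 0.967, different lines -0.505 to -0.467), and the lines are the pairs. The values between different lines are negative by construction, since the deviations of the lines cancel around their condition's mean. Only the values within a line bear on the pairing. In simulated data of 14294 genes, 82 of 100 genes changed by 0.5 and 100 of 100 changed by 1 were recovered in the knock-down test, with 3 false calls. Every simulated gene had the same normal noise, with the median residual SD of the data, and the same change in each line. The recovery therefore does not give the power for genes with a larger spread or with changes that differ between lines. Each gene alone leaves 2 residual degrees of freedom, and limma draws its variance towards a trend over all genes. The p-values and intervals of the fit therefore rest largely on a spread between these libraries that is pooled over genes, not on that of a gene alone.

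Coordinates and transcript lengths are those of GENCODE v44 (hg38), and promoters those of RefSeq (GRCh38.p14). The kit does not mark strand, and exons of WWTR1 overlap those of the antisense WWTR1-AS1 (0.198 to 0.385 CPM). Exons of CTGF overlap the antisense LINC01013 (at most 0.0386 CPM), and those of AMOTL2 the pseudogene RPL39P5 on the same strand (at most 0.0672 CPM). YAP1 overlaps antisense lncRNAs (628 bases shared with 1 of them) and AJUBA a protein-coding gene on the same strand (50 bases). No level of these was listed by name. Genes named are the 10 genes, HOTAIRM1, of each list the genes past the threshold or else the 3 with the largest change, and the 3 closest patterns of YAP1, CTGF and CYR61. The genes and lists were chosen with earlier results of these data known. Alternatives were no block, a pseudocount of 0.1, median centring, the listed genes scaled to a common sum, no filter, no trend, removal of the trend with length, leaving out each line and, chosen after seeing the data, protein-coding genes scaled to a common sum.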

Additional observations from a re-analysis of the deposited data

Results flagged for a closer look

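In the CPM as deposited, the change of each of the 10 genes with siHOTAIRM1 had opposite signs in different cell lines, each line being represented by 1 library per condition. These differences were not tested, and the signs in T98G depend on the scaling. With protein-coding genes scaled to a common sum 6 of the 10 genes were higher in T98G (54.9% of genes tested) and 9 in U251 (56.7%). Relative to the line medians 6 were lower in T98G and higher in U251. The log2 ratio of WWTR1 in T98G was -0.0084, with a counting interval of -0.07 to 0.05. On the log2(CPM + 1) scale, the change in U251 minus the change in T98G was 0.50 for YAP1, 0.20 for WWTR1, 0.39 for TEAD1, 0.42 for CTGF, 0.50 for CYR61, 0.51 for ANKRD1, 0.70 for AMOTL2, 0.70 for AJUBA and 0.57 for LATS2. For TEAD4 the change in LN-229 minus the change in T98G was 0.60. Relative to the medians of all genes in each line, these differences were 0.34 for YAP1, 0.03 for WWTR1, 0.22 for TEAD1, 0.26 for CTGF, 0.34 for CYR61, 0.35 for ANKRD1, 0.53 for AMOTL2, 0.54 for AJUBA, 0.41 for LATS2 and 0.40 for TEAD4.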

How the results depend on the processing

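No member passed the knock-down test under any alternative, with a smallest adjusted p of 0.311 over all of them (without LN-229). Of the 110 alternative values of the members' knock-down changes, 95 kept their direction and 15 reversed. They were AMOTL2 at 0.058 after median centring, 0.13 with the listed genes and 0.097 with the protein-coding genes scaled to a common sum, and 0.020 with the length trend removed, AJUBA at 0.054 and 0.025 with these scalings, and 9 values on leaving out a line. Leaving out a line gave -0.10 to 0.15 for YAP1, -0.0022 to 0.095 for WWTR1, -0.11 to 0.086 for TEAD1, -0.069 to 0.14 for CTGF, -0.043 to 0.21 for ANKRD1 and -0.096 to 0.19 for LATS2, each lowest without U251 and highest without T98G, and likewise -0.19 to 0.16 for AMOTL2 and -0.24 to 0.11 for AJUBA. CYR61, which kept its direction, was at -0.32 without U251, -0.11 without LN-229 and -0.072 without T98G. HOTAIRM1 was lower in every setting and lost its call without the replicate block (-0.54, adjusted p = 0.999998), after median centring (-0.46, 0.170), with the listed genes (-0.56, 0.204) or protein-coding genes (-0.61, 0.157) scaled to a common sum, without a filter (-0.54, 0.667) and with the length trend removed (-0.33, 0.232), and leaving out a line gave -0.56 to -0.50. The signature had 2 called genes, against 0 without the replicate block, with protein-coding scaling and without a filter, 1 after centring, with the listed genes scaled and with the length trend removed, and 0 to 2 on leaving out a line. The kinase and junction lists each had 1 called gene with a pseudocount of 0.1 (0 otherwise). Between lines, 152 of 180 alternative values kept direction and call. The reversals were AJUBA in T98G minus LN-229 (0.014, centring), TEAD1 in U251 minus LN-229 (-0.20 with the listed genes, -0.11 with the protein-coding genes) and TEAD1 in U251 minus T98G (-0.087 with centring, -0.27 and -0.18 with these scalings). Between U251 and T98G 8 genes were called, against 5 with the listed genes scaled (LATS2 gained, and WWTR1, ANKRD1, AMOTL2 and AJUBA lost) and 4 without a filter, which tests 35932 genes. No share over all genes was computed for the counts called in these alternatives. By sign, 6 members were higher in LN-229, against 3 with the listed genes scaled, where 43.1% of genes tested were. In T98G 0 were higher (20.3% of genes tested). The T98G count was 3 with the listed genes scaled (49.6%) and 6 with protein-coding scaling (54.9%). It was 2 with the length trend removed (49.4%) and 3 relative to the line median (50%). Past 0.5 were 2 in T98G with a pseudocount of 0.1, where 14.5% of genes tested were. In U251 4 were past 0.5 with the listed genes scaled (25.4%), and 0 members were in the other cases. The cause of these shifts was not tested. Depth limits ANKRD1 in LN-229 and HOTAIRM1, which rest on the fewest reads.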
